A study of Homo sapiens with 4 samples.

Results

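Among the RNAs read in 2 breast epithelial lines after depletion of FOXF2, a forkhead transcription factor, this account follows 7SK RNA and the genes of the elongation factor P-TEFb. The members are RN7SK, LARP7, MEPCE, HEXIM1, CDK9, CCNT1 and CCNT2, and all 7 were found among the 37810 gene names of the deposited table. They were chosen by gene name with earlier results of the same arrays known, and the value that brought them forward was the RN7SK difference between FOXF2 siRNA and control siRNA in MDA-MB-231. The members' differences between the siRNAs are therefore a description and carry no test. MCF10A is an immortalized, non-tumorigenic breast epithelial line, and MDA-MB-231 (231 in the titles) is a line from a metastatic breast cancer. Cells of each line received either siRNA, control or against FOXF2, at 20 nM, and total RNA was taken after 48 h, which makes 4 groups of 1 Illumina expression array each. How many FOXF2 siRNA sequences were used is not given in the sources used here, and no group had a second culture.

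P-TEFb is the kinase that releases paused RNA polymerase II into productive elongation. It is made of CDK9 and a T-type cyclin, and a part of it is held inactive in the 7SK ribonucleoprotein, where HEXIM proteins inhibit the kinase once they are bound to 7SK RNA. 7SK is transcribed by RNA polymerase III. MEPCE caps its 5′ end, and LARP7 covers its 3′ end and keeps it stable.

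All 7 members were above background on all 4 arrays, a state that 9962 of the 37810 names shared. The limits above background were intensities of 121.5 and 121.7 in MCF10A and 121 and 121.2 in MDA-MB-231, so RN7SK, HEXIM1, CCNT1 and CCNT2 lay close to them on some arrays, where a small change in background moves a ratio most. FOXF2, the gene targeted, read 241 under control siRNA against 143 under its own siRNA in MCF10A, and 259 against 123, just over the limit, in MDA-MB-231. Of 7 markers of basal mammary epithelium, KRT5, KRT14, KRT17, CDH1 and TP63 (TP73L in the table) were above background on both MCF10A arrays and on neither MDA-MB-231 array, while LAMB3 and EPCAM were above it on all 4. Of 5 mesenchymal markers, ZEB1 was above background on the MDA-MB-231 arrays alone and VIM, AXL, MSN and SPARC on all 4. VIM and AXL were higher in MDA-MB-231 by 1.11 and 2.29 in the limma fit of all 4 arrays, and SPARC had a value of -0.52 that did not pass (limma adjusted p = 0.232). Of 5 markers of other cell types, PTPRC and CD79A (blood cells) were at background throughout, COL1A1 was above it on 1 array, ALB on 2 and PECAM1 (endothelium) on all 4, at 142 to 190. In bulk RNA, fewer cells of a type and less RNA per cell cannot be told apart.

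**Figure D1:**
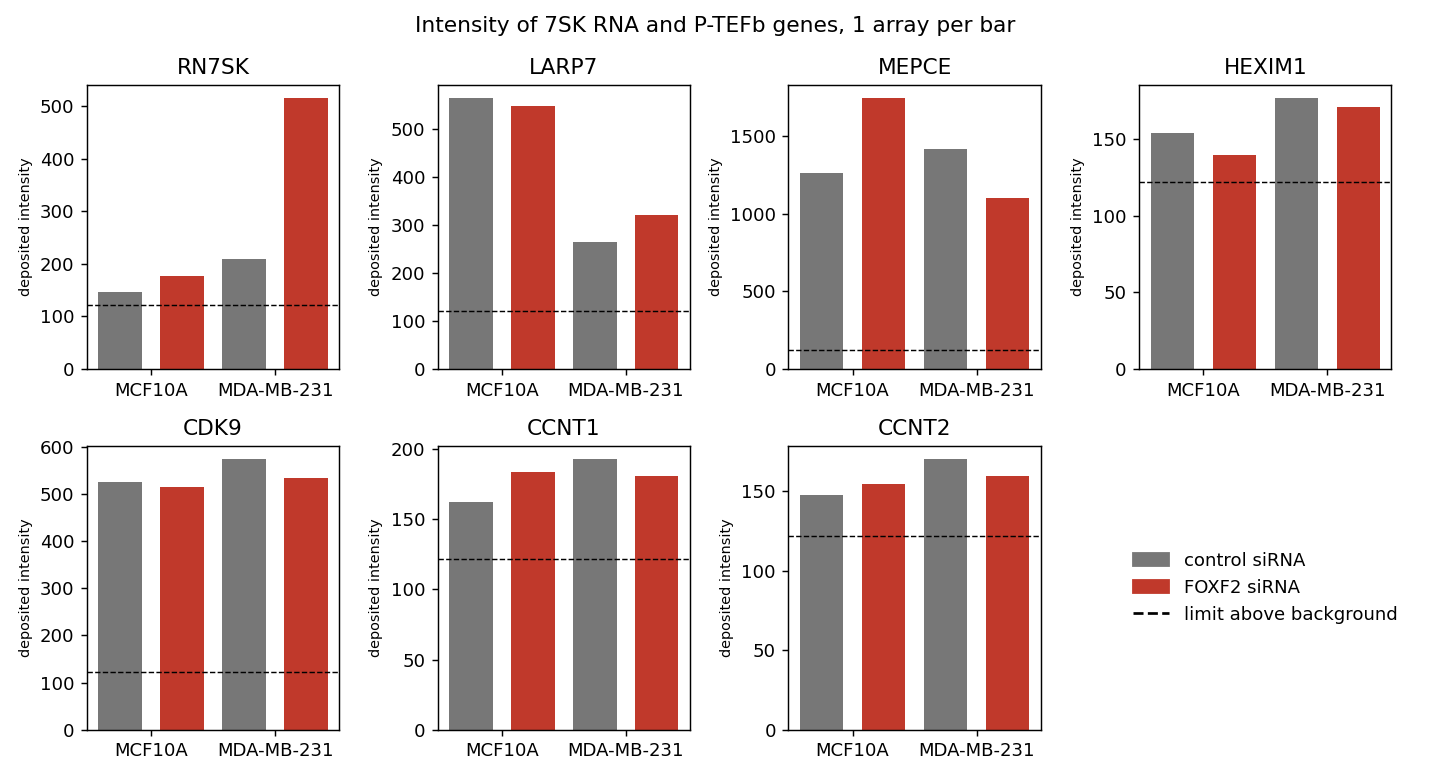
Deposited linear intensity (vertical axis, from 0, a scale of its own for each gene) of the 7 members on each of the 4 arrays, grey for control siRNA and red for FOXF2 siRNA, with the highest of the limits above background as a dashed line. RN7SK is highest in MDA-MB-231 with FOXF2 siRNA (514), LARP7 is higher on both MCF10A arrays than on either MDA-MB-231 array, and CDK9 stays between 514 and 574.

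RN7SK, the gene of the 7SK RNA itself (RefSeq GRCh38.p14, chr6:52995620-52995951, a small nuclear RNA of 332 bases), had the widest range of the members on the log2 scale. In MCF10A it read 146 under control siRNA against 178 under FOXF2 siRNA, and in MDA-MB-231 it read 209 against 514. Both MCF10A arrays thus lay below both MDA-MB-231 arrays, with the FOXF2 siRNA array the higher of each pair, and no repeat array showed which neighbours in that order differ. On the background-corrected log2 scale, which this text uses for all differences, RN7SK was higher with FOXF2 siRNA by 1.81 in MDA-MB-231 and by 0.62 in MCF10A. The response was larger in MDA-MB-231 by 1.19, a difference of differences from 4 arrays that leaves no error to test it with. In MDA-MB-231 it was the 4th highest difference of 11398 genes above background on both arrays, and in MCF10A the 735th highest of 11316. Among the 1000 genes nearest in brightness the robust SD of the difference was 0.389 in MDA-MB-231 and 0.483 in MCF10A. The MCF10A value lay outside that spread but near it in size.

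The size of the RN7SK difference depended on the background correction. The deposited intensities themselves differed by a ratio of 2.47 in MDA-MB-231 and 1.22 in MCF10A. There were 2 probes with its name on the array, and the deposited value joins them in a way that the sources used here do not describe. 7SK lacks a poly(A) tail, while the labelling kit named in the labels starts from poly(A); how this bears on the RN7SK signal was not tested.

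The other members moved less with FOXF2 siRNA. At least 2-fold higher was 1 of the 7 members in MDA-MB-231, RN7SK, against 1.2% of 16793 genes above background on at least 1 of the arrays, and none was 2-fold lower, against 1.38%. In MCF10A no member reached 2-fold in either direction, against 1.7% of 16543 genes that were higher and 1.14% that were lower. Nothing is read from these shares, since this contrast chose the members. In MCF10A 4 of the 7 were higher and 3 lower, with a median difference of 0.15. In MDA-MB-231 2 were higher and 5 lower, with a median of -0.13. Over all genes above background on both arrays the medians were -0.01 and 0.00, with 5734 of 11316 lower in MCF10A and 5691 of 11398 in MDA-MB-231.

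**Figure D2:**
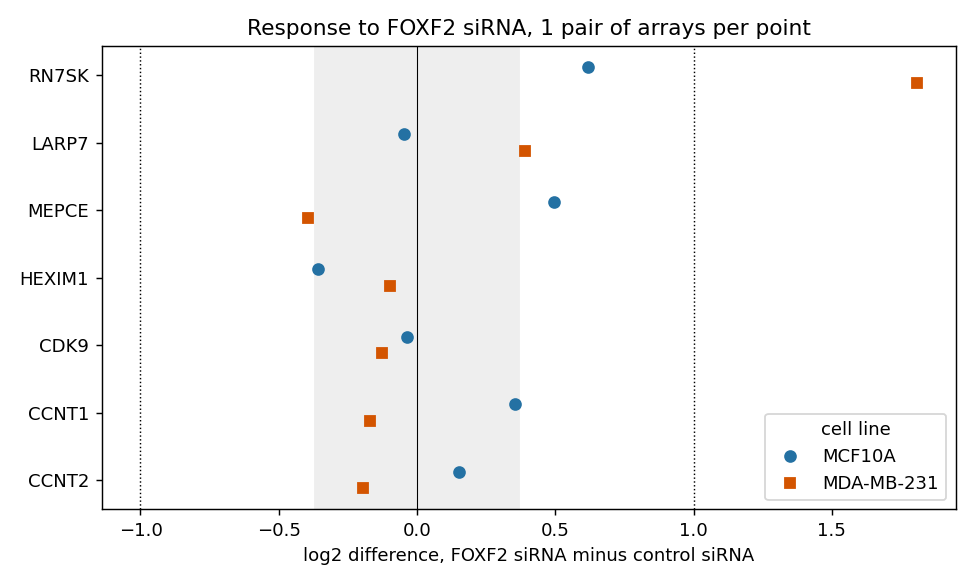
Log2 difference of FOXF2 siRNA minus control siRNA (horizontal axis, background-corrected) for each member, 1 pair of arrays per point, with circles for MCF10A and squares for MDA-MB-231. The grey band spans the robust SD of all genes, 0.37 in the wider line, and dotted lines mark 2-fold; only RN7SK in MDA-MB-231 lies beyond them, at 1.81.

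LARP7 (chr4:112637143-112657586 in GRCh38.p14, as for the positions that follow), the La-related protein that binds and stabilizes 7SK, differed between the lines. In MCF10A it read 564 under control siRNA against 549 under FOXF2 siRNA, and in MDA-MB-231 it read 266 against 321. Both MCF10A values were above both MDA-MB-231 values. To ask whether the members differ between the lines, all 4 arrays were fitted in limma with line and siRNA as terms, so that the siRNA arrays of a line stood in for replicates. LARP7 was lower in MDA-MB-231 by 1.20 on the log2 scale (SE 0.235, limma adjusted p = 5.35e-06 over 20747 genes). It was lower by 1.41 on the control arrays and by 0.98 on the FOXF2 siRNA arrays. The call was lost when limma's prior spread did not follow brightness (adjusted p = 0.052) and with each gene's own spread (adjusted p = 0.532). With FOXF2 siRNA, the LARP7 difference was -0.05 for MCF10A against 0.39 for MDA-MB-231. Both were inside the robust SD of the 1000 genes nearest in brightness (0.332 and 0.392), the MDA-MB-231 value only just.

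Of the 7 members, LARP7 was the 1 called lower in MDA-MB-231, against 5.95% of all genes in the fit. Apart from RN7SK, none was called higher, against 5.75%. RN7SK was higher by 1.64 in that fit, but the value rests in part on the MDA-MB-231 array that brought the members forward. It is therefore given with no p, and no call is counted for it. On the control arrays alone, which hold 1 of the 2 MDA-MB-231 arrays of that contrast, RN7SK was higher in MDA-MB-231 by 1.05. LARP7 and RN7SK stood in opposite order between the lines on both the control and the FOXF2 siRNA arrays. Each of these comparisons holds an MDA-MB-231 array of the contrast that chose the members. The order is therefore a description, and a link between LARP7 and RN7SK was not tested. The median difference between the lines was 0.23 over the members and 0.04 over all genes in the fit.

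**Figure D3:**
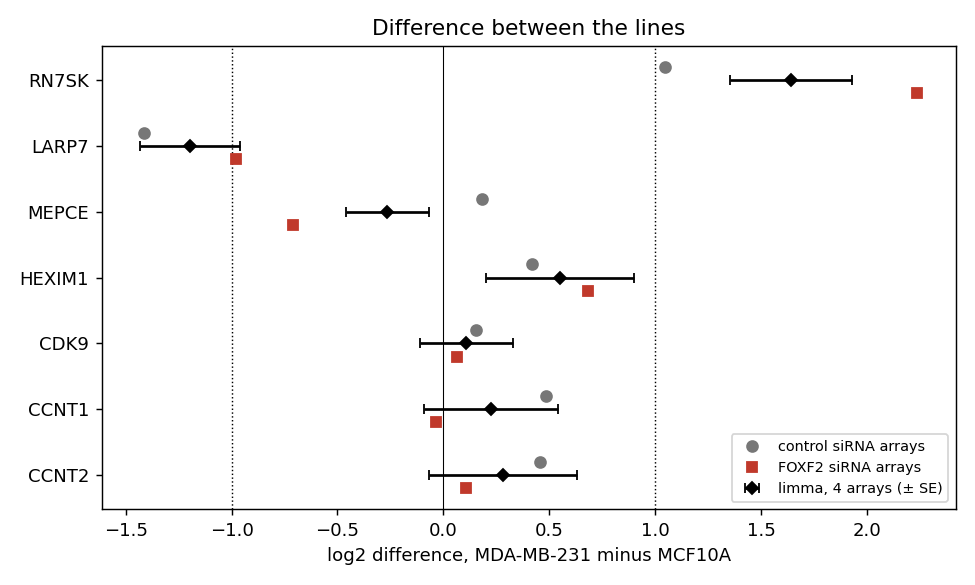
Log2 difference of MDA-MB-231 minus MCF10A (horizontal axis) for each member: grey circles for the control siRNA arrays, red squares for the FOXF2 siRNA arrays, and black diamonds for the limma estimate over the 4 arrays with its SE as bars. LARP7 lies at -1.41 and -0.98, RN7SK at 1.05 and 2.23, and the points of MEPCE and CCNT1 fall on both sides of 0.

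The start region of LARP7 is printed because it is the member whose line difference passed the test. The RefSeq windows used here numbered 10, for the 6 members other than RN7SK, which had none among them. Each was searched on both strands, over the 250 bases before a start. The strings were the forkhead core GTAAACA, which 2.98% of 35116 RefSeq windows contain, and TATAAA, 1 form of the TATA box, which 10.7% contain. No member window held the forkhead core, and the 1 window with TATAAA was that of HEXIM1, 29 bases before its start. Other forms of the TATA box were not searched for, and a MEPCE window holds the similar TATATAAG. These letters are a description of the windows and say nothing on binding. LARP7 had 2 windows, and the one before its first start is printed. The 250 bases before that LARP7 start (GRCh38.p14, chr4:112636893-112637142, plus strand, 59.6% G and C) and those before the HEXIM1 start (chr17:45148225-45148474, plus strand, 62.4% G and C) follow 5′ to 3′, with the TATA box in capitals.
LARP7: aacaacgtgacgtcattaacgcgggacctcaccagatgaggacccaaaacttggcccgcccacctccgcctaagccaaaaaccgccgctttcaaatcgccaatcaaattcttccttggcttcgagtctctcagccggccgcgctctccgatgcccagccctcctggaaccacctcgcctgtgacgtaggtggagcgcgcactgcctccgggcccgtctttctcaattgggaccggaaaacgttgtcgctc
HEXIM1: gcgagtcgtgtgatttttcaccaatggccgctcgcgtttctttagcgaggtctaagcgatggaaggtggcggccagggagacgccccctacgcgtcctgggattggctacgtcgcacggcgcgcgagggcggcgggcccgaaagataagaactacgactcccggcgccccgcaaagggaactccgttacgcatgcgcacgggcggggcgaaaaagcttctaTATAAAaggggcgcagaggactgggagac

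MEPCE (chr7:100428790-100434118), the methyltransferase that caps 7SK and stays on it, had differences of opposite sign in the 2 lines. In MCF10A it read 1262 under control siRNA against 1744 under FOXF2 siRNA, and in MDA-MB-231 it read 1419.5 against 1099.8. That gave 0.50 for MCF10A against -0.40 for MDA-MB-231. Both lay outside the robust SD of the 1000 genes nearest in brightness, 0.262 and 0.305, and MEPCE ranked 1129th from the highest in MCF10A, 1616th from the lowest in MDA-MB-231. Between the lines MEPCE was higher in MDA-MB-231 by 0.18 on the control arrays and lower by 0.71 on the FOXF2 siRNA arrays, and the fitted difference was -0.26 (SE 0.195, limma adjusted p = 0.462). The sign of its difference between the lines thus differed between the siRNAs, and with 1 array per group this was not tested.

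HEXIM1 (chr17:45148475-45152099), the inhibitor that 7SK RNA switches on against the kinase, lay close to the limits on all arrays. It read 154 and 139 in MCF10A, control siRNA first, against 177 and 171 in MDA-MB-231. Both MDA-MB-231 values were above both MCF10A values, but the fitted difference of 0.55 did not pass (SE 0.348, limma adjusted p = 0.345). Its siRNA differences, -0.36 in MCF10A against -0.10 in MDA-MB-231, were inside the robust SD of the genes nearest in brightness (0.548 and 0.468). HEXIM2, its paralog, was at 133 and 156 in MCF10A and at 172 and 158 in MDA-MB-231, with differences of 0.58 and -0.25.

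CDK9 (chr9:127786034-127790792), the kinase subunit of P-TEFb, had the smallest log2 range of the members. It read 525 and 514 in MCF10A, control siRNA first, against 574 and 533 in MDA-MB-231. The siRNA differences were -0.04 and -0.13. The fitted difference between the lines was 0.11 (SE 0.221, limma adjusted p = 0.815), and the values on the control and FOXF2 siRNA arrays were 0.15 and 0.06.

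CCNT1 (chr12:48688458-48716707) and CCNT2 (chr2:134918822-134959342) encode the T-type cyclins that pair with CDK9 and draw it to its substrates. In MCF10A CCNT1 read 163 under control siRNA against 184 under FOXF2 siRNA, and in MDA-MB-231 it read 193 against 181. CCNT2 was at 148 and 155 in MCF10A, and at 170 and 160 in MDA-MB-231. Both cyclins were thus slightly higher with FOXF2 siRNA in MCF10A (0.35 and 0.15) and slightly lower in MDA-MB-231 (-0.17 and -0.20), within the robust SD of genes of like brightness in each line (0.456 to 0.534). Their fitted differences between the lines were 0.23 for CCNT1 (SE 0.317) and 0.28 for CCNT2 (SE 0.35), with limma adjusted p = 0.748 and 0.716. For CCNT1 the MCF10A and MDA-MB-231 values overlapped, and for CCNT2 they did not.

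**Figure D4:**
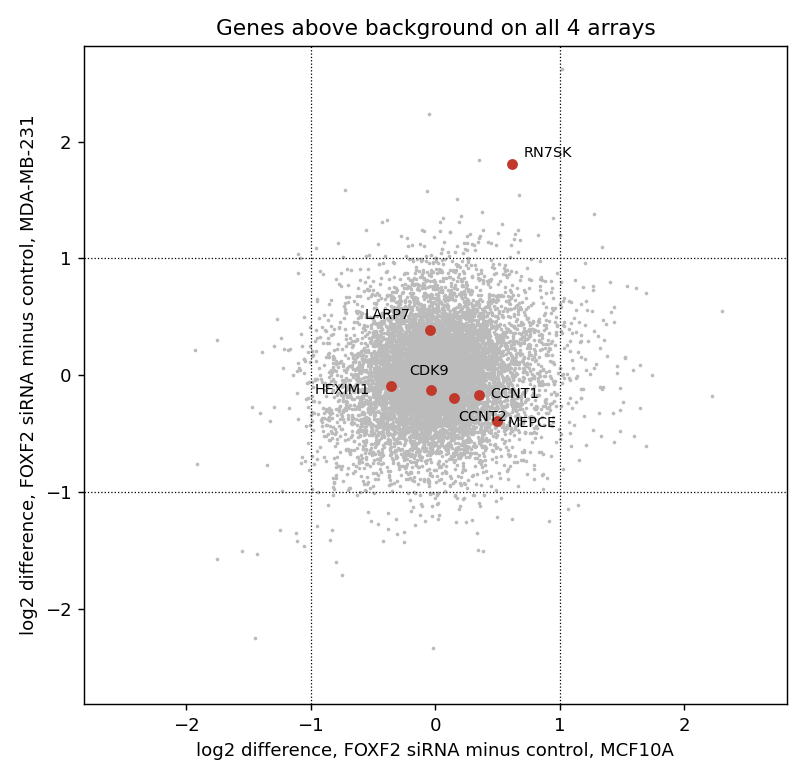
Log2 difference of FOXF2 siRNA minus control siRNA in MCF10A (horizontal axis) against that in MDA-MB-231 (vertical axis) for the 9962 genes above background on all 4 arrays, grey, with the 7 members in red and dotted lines at 2-fold. RN7SK lies at 0.62 and 1.81, and the other 6 members lie within the cloud.

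The genes whose log2 values over the 4 arrays ran closest to those of RN7SK, after each gene was centred, were PLAC8 (Euclidean distance 0.499), SLC39A11 (0.51), CA9 (0.547), SPIRE2 (0.554), HMOX1 (0.657), KLHL28 (0.759), SC65 (now P3H4, 0.792) and MYL9 (0.795), out of 9962. Among the nearest, 1 name without an approved symbol was left out. Their Pearson r with RN7SK over the 4 arrays was 0.962 to 0.997, a description over 4 points. Likeness to RN7SK on these same arrays picked the genes, so a high r and a shared highest array follow largely from that choice. HMOX1, the stress-inducible haem oxygenase, was at 123.5 and 162 in MCF10A and at 160 and 538 in MDA-MB-231. PLAC8 was at 231 and 318 in MCF10A and at 521 and 1056 in MDA-MB-231. Both had their highest value, as RN7SK did, in MDA-MB-231 with FOXF2 siRNA. CA9, a carbonic anhydrase induced by hypoxia, did so as well but was level in MCF10A (136 and 134).

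Other small noncoding RNAs served as a comparison for RN7SK, since they too are short and mostly lack poly(A) tails. The table held 63 such names beside RN7SK, of which 28 were above background on all 4 arrays. RPPH1, the RNA of ribonuclease P and like 7SK a product of RNA polymerase III, was at 245 and 224 in MCF10A and at 1692 and 1423.5 in MDA-MB-231. With FOXF2 siRNA it differed by -0.21 and -0.26, unlike RN7SK, while between the lines it was higher in MDA-MB-231 by 3.31 (SE 0.22, limma adjusted p = 5.47e-49). RN7SL1, the RNA of the signal recognition particle and also made by RNA polymerase III, was between 24078 and 26590 on all arrays, near their highest intensities (28123 to 32091). Its siRNA differences were -0.08 and 0.14. Most of the others are small nucleolar RNAs, which mostly lie inside host genes, and whether their probes read the host transcript was not tested.

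The siRNA differences of these 28 RNAs spanned -0.90 to 0.35 in MCF10A and -0.91 to 0.68 in MDA-MB-231, so the RN7SK difference of 1.81 lay above their range in MDA-MB-231 and that of 0.62 above it in MCF10A. Over the 33 small RNAs above background on both MCF10A arrays, however, the highest difference was 0.76, above that of RN7SK. Their highest value in MDA-MB-231 was that of SNORD48 and their lowest that of SNORD22. Among all the small RNAs SNORD15B, named after its value was seen, was counted at 2-fold higher in MDA-MB-231, and its control value there was at background (115 to 157). Called higher in MDA-MB-231 beside RPPH1 were SNORA7B (1.11), SNORD30 (1.10) and SNORD13 (1.09). Called lower were SNORA10 (-1.03) and SCARNA9, which was not above background on either MDA-MB-231 array (limma adjusted p = 0.00236) and was named after its value was seen. That makes 4 called higher and 2 lower of 48 tested, against 5.75% and 5.95% of all genes in the fit. Of these 6, RPPH1 alone kept its call both without background correction and with an offset of 50 before the log.

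The other genes of the pathway were taken from 7 lists, whose 100 names in the table were described by counts. None of them was 2-fold different with FOXF2 siRNA, out of 97 above background on at least 1 array in MCF10A and 95 in MDA-MB-231. Over all genes the shares were 1.7% higher and 1.14% lower in MCF10A, and 1.2% and 1.38% in MDA-MB-231, so few genes of lists this small would be counted at those shares. Between the lines 8 were called higher in MDA-MB-231 and 5 lower, out of 98 tested, against 5.75% and 5.95% of all genes. The counts over the lists together were thus near those shares, but they were uneven between lists. The list of short-lived transcripts held all 5 lower calls and 3 of the 8 higher ones, out of 12 tested.

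The super elongation complex and the recruiters of P-TEFb, which carry the active kinase to genes, had siRNA medians of 0.06 for MCF10A against -0.28 for MDA-MB-231. ELL2, an elongation factor, was at 198 and 263 in MCF10A and at 262 and 214 in MDA-MB-231. ELL3 went the other way, with differences of -0.50 and 0.48. None of the 11 tested was called between the lines. The nearest were AFF1, the scaffold of the complex (-0.96, limma adjusted p = 0.0176, under 2-fold), and EAF2 (-0.95, adjusted p = 0.122).

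The factors NELF and DSIF, which hold paused polymerase and on which P-TEFb acts, had medians of -0.08 and 0.06 over 6 genes. NELFA (WHSC2 in the table) had differences of 0.68 and -0.29, and SUPT5H, the large DSIF subunit, by -0.43 and 0.23. SUPT4H1, the small DSIF subunit, was at 662 and 693 in MCF10A and at 1148 and 1616 in MDA-MB-231. It was called higher in MDA-MB-231 by 1.11 (limma adjusted p = 7.14e-07), 1 of 6, a call lost in limma without a trend, while NELFE (RDBP in the table) was higher by 0.86, under 2-fold.

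Other kinases of the polymerase and their cyclins had medians of -0.05 and -0.07 over 11 genes, and none was called between the lines. CDK12 (CRKRS) differed by -0.72 and -0.16, CDK19 (CDC2L6) by -0.72 and -0.64, and CDK7, the kinase of the initiation factor TFIIH, by -0.31 and 0.46. CCNC was lower in MDA-MB-231 by 0.77 (limma adjusted p = 0.0025), under 2-fold, and CCNL2 had a fitted value of -0.91 that did not pass (adjusted p = 0.0981).

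The PAF1 complex and other elongation factors had medians of -0.11 and 0.04 over 13 genes above background on both arrays. TCEA2, which helps stalled polymerase to restart, was at 185 and 252 in MCF10A and at 410 and 531 in MDA-MB-231, higher in MDA-MB-231 by 1.57 (limma adjusted p = 8.79e-09). LEO1, a PAF1 subunit, had siRNA differences of -0.56 and 0.12, and SUPT16H, a histone chaperone subunit, of -0.45 and 0.04.

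Proteins that bind 7SK or release P-TEFb from it had medians of -0.13 in MCF10A, with 13 of 17 lower, and -0.10 in MDA-MB-231, with 11 of 17 lower. Over all genes above background on both arrays, 5734 of 11316 were lower in MCF10A and 5691 of 11398 in MDA-MB-231. HMGA1, a chromatin protein that 7SK binds, was at 771 and 459 in MCF10A and at 1661 and 1836 in MDA-MB-231. It differed by -0.88 and 0.15 with FOXF2 siRNA and was called higher in MDA-MB-231 by 1.72 (limma adjusted p = 5.92e-16), 1 of 17. That line difference was 1.20 on the control arrays and 2.23 on the FOXF2 siRNA arrays. With each gene's own spread the call was lost. DDX21, a helicase that frees P-TEFb from 7SK, differed by -0.09 and 0.59, and SRSF2 (SFRS2 in the table), a splicing factor with the same effect, by -0.47 and -0.06. TRIM28, which holds the 7SK complex at promoters, differed by -0.40 and -0.32.

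RNA polymerase III and the factors of its promoters had medians of -0.19 in MCF10A, with 17 of 27 lower, and -0.01 in MDA-MB-231, with 13 of 24 lower. The counts over all genes were 5734 of 11316 lower in MCF10A and 5691 of 11398 in MDA-MB-231. SNAPC1 and SNAPC5 are subunits of the complex that binds the promoters of 7SK, RPPH1 and other small RNAs. SNAPC1 was at 271 and 216 in MCF10A and at 669 and 558 in MDA-MB-231, higher there by 1.76 (limma adjusted p = 4.88e-12). SNAPC5 was higher by 1.27 (adjusted p = 0.00031), and these were the 2 of 27 genes called between the lines. The SNAPC5 call was lost without background correction and with an offset of 50. With FOXF2 siRNA SNAPC1 differed by -0.51 and -0.31, SNAPC5 by 0.70 and 0.11, GTF3C5 by -0.52 and -0.27, and BRF1 by 0.65 in MCF10A, while in MDA-MB-231 its 2 arrays (121 and 120) lay at the limit.

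Short-lived transcripts known to depend on CDK9 had siRNA medians of -0.07 for MCF10A against -0.32 for MDA-MB-231. MCL1, an anti-apoptotic BCL2 relative, was at 1353 and 730 in MCF10A and at 551 and 360 in MDA-MB-231, differences of -0.98 and -0.76. JUN differed by -0.23 and -0.67 and IER2 by 0.87 and 0.04. Of the 12, FOSL1 (2.67), JUN (2.04) and CCND1 (1.01) were called higher in MDA-MB-231, and MYC (-2.93), FOS (-2.58), DUSP1 (-2.20), EGR1 (-1.74) and MCL1 (-1.34) lower. These 3 higher and 5 lower of 12 tested stand against 5.75% and 5.95% of all genes in the fit. FOS, DUSP1, EGR1 and CCND1, whose call was lost in limma without a trend, were named for this count after their values were seen.

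**Figure D5:**
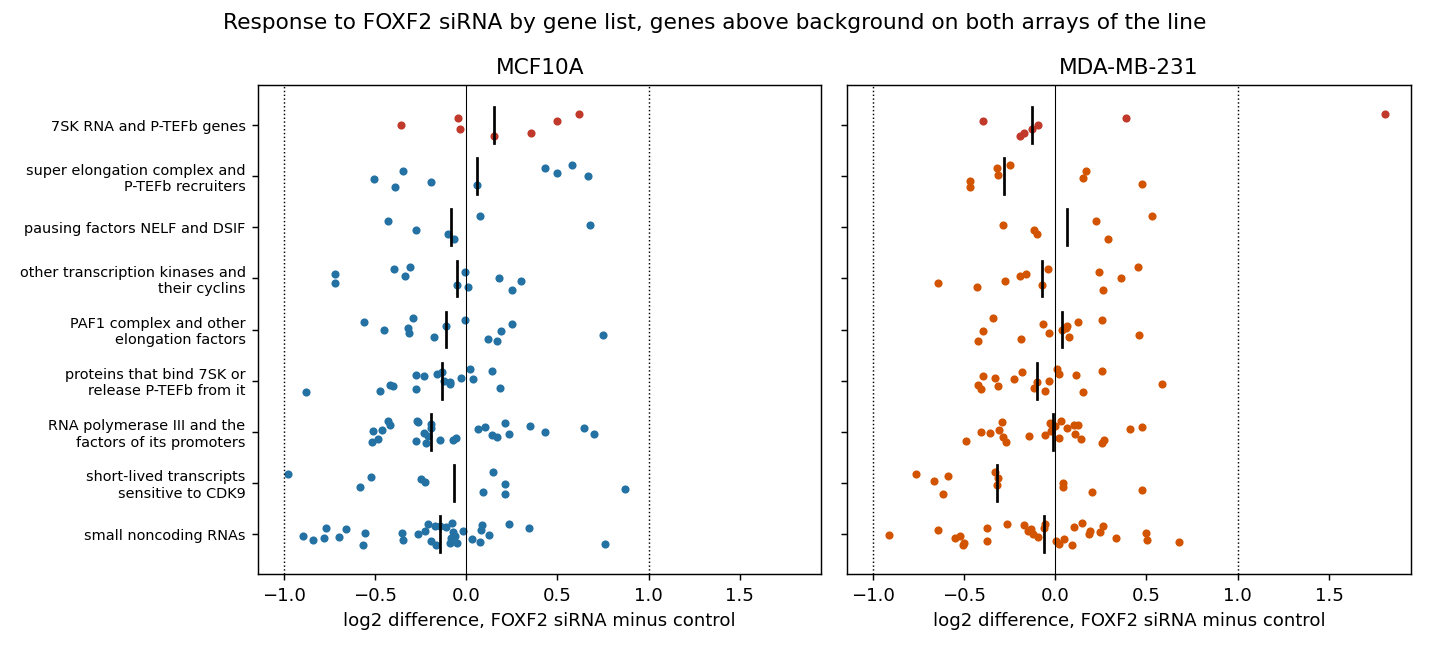
Log2 difference of FOXF2 siRNA minus control siRNA (horizontal axis) of each gene above background on both arrays of a line, by list (rows, the 7 members on top in red), for MCF10A (left) and MDA-MB-231 (right), with black bars at the list medians and dotted lines at 2-fold. RN7SK at 1.81 in MDA-MB-231 is the 1 point plotted beyond 2-fold, and the medians lie between -0.32 and 0.15.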

How the data were processed

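The authors deposited a processed table with 1 intensity, on a linear scale, for each gene name on each array. Per the labels' protocols, biotinylated cRNA was made with a MessageAmp kit. Nothing used here states how they normalized, treated background or joined probes. A table by probe served only to count probes per name, since its 8 columns of per-sample values match no sample's labels. From the deposited values, each array's background was the mode of intensities below 140 (density bandwidth 1.5) with the SD of the values under it; limma's normexp estimate was taken, 16 added and log2 taken. Names above the upper 1% of that background counted as above background. Where only 1 of 2 arrays was, a bound was counted.

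With 1 array per group, siRNA differences were described against a fixed 2-fold. The lines were compared with limma 3.58.1 in R 4.3.3 for the 20747 genes that at least 1 array showed above background. Line and siRNA were the terms, which left 1 residual degree of freedom, and eBayes let the prior follow brightness. A call needed a Benjamini-Hochberg adjusted p below 0.05 with at least 1 log2 unit of difference. The prior degrees of freedom were infinite, so each gene's spread came from genes of like brightness. The fit was tested on simulated data with independent noise and no siRNA effect. That test cannot show how far the p-values hold for these arrays. P-values measure only the spread between these 4 arrays, whose number limits every value.

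The members and lists were chosen with earlier results of these data known. Named were the members and FOXF2, per list up to 3 genes by siRNA difference and 2 by line difference, the 8 genes nearest RN7SK, and small noncoding RNAs above background on all arrays, of which RN7SL1, RPPH1, those called and the extremes are given. RNUXA, a protein gene despite its name, was left out. Of 102 list genes 100 were in the table. A protein comparison that had been foreseen was not run, as no protein sequences were used here.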

Additional observations from a re-analysis of the deposited data

Results flagged for a closer look

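With 1 pair of arrays per line, some results had opposite signs in MCF10A and MDA-MB-231. The difference between the lines was not tested for any of them. Over all genes above background on both arrays, 5734 of 11316 were lower in MCF10A and 5691 of 11398 in MDA-MB-231. How many of all genes had opposite signs was not counted. Several of the signs rest on values inside the robust SD of all genes, 0.341 in MCF10A and 0.369 in MDA-MB-231. Among the members, the response to FOXF2 siRNA was higher in MDA-MB-231 than in MCF10A by 0.43 on the log2 scale for LARP7. It was lower there by a log2 difference of -0.89 for MEPCE, -0.52 for CCNT1 and -0.35 for CCNT2. Both responses of LARP7, of CCNT1 and of CCNT2 lay within the robust SD of genes of like brightness, and both of MEPCE lay outside it.

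Among the other pathway genes, the responses in MDA-MB-231 minus those in MCF10A were -1.14 for ELL2, -0.83 for HEXIM2, -0.97 for WHSC2 (NELFA) and -0.48 for MYC. They were 0.98 for ELL3, 0.65 for SUPT5H, 0.35 for RDBP (NELFE), 0.76 for CDK7, 0.68 for LEO1, 0.49 for SUPT16H, 1.03 for HMGA1 and 0.68 for DDX21. For CA9, near RN7SK in pattern, the value was 1.65. Of the small noncoding RNAs above background on all 4 arrays, those with opposite signs were RN7SL1 (0.22), SNORA32 (0.43), SNORA33 (0.22), SNORA7B (0.42), SNORD13 (0.32), SNORD14A (1.05), SNORD35B (0.88), SNORD36A (0.85), SNORD48 (0.73) and SNORD68 (0.25), with negative values for SNORA10 (-0.15), SNORA64 (-0.41) and SNORA70 (-0.23). RN7SK itself moved in the same direction in both lines and is not among them.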

How the results depend on the processing

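The line differences of LARP7, RN7SK and the 19 list genes and small RNAs called between the lines kept their direction under the alternatives run, except that SCARNA9 was not tested among genes above background on all 4 arrays. Without background correction the RN7SK difference in MDA-MB-231 was 1.30; the other alternatives (an offset of 50, a common median, limits at the upper 5% or 0.1% of the background) moved it, and the MCF10A value, by less than the spread of all genes. LARP7 between the lines stayed at -1.20 in limma without a trend and with each gene's own spread, where the call was lost. Counts of genes moved far more. In MCF10A, 34 genes were 2-fold higher and 9 lower with no background correction, and 77 and 27 with the offset of 50; lower ones were 123 and 321 with the stricter and looser limit. In MDA-MB-231, 7 were higher and 12 lower with no background correction, and 34 and 35 with the offset of 50; with the looser limit 321 and 365, and with the stricter limit 124 higher. Between the lines 568 were called higher and 658 lower with no background correction, 724 and 726 over genes above background on all 4 arrays, and 0 and 0 with each gene's own spread, where 2173 of 20747 had an unadjusted p under 0.05, against 4363 in limma without a trend. Of those 19, 13 kept their call without background correction, 13 with the offset of 50, 13 in limma without a trend and 0 with each gene's own spread. The FOXF2 differences were -0.75 and -1.08 without background correction, MCF10A first. MEPCE between the lines was 0.18 on control and -0.71 on FOXF2 siRNA arrays, and RN7SK 1.05 and 2.23.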
